A study of Drosophila melanogaster with 16 samples.

Results

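The genes described here are those that still differ from control in the larval nervous system when neurons overexpress TFAM and also carry an RNAi construct against ATF4. The members are samples, chosen by their labels: the 4 libraries of TFAM overexpression with ATF4 RNAi and the 4 control libraries, 8 of the 16 libraries in the series. TFAM o/e + ATF4 RNAi larvae were nsybGal4>UAS-TFAM3M, UAS-ATF4 RNAi, and control larvae were nsybGal4/+, so all of them carried the pan-neuronal Gal4 driver. Beside them stand the 4 TFAM o/e libraries (nsybGal4>UAS-TFAM3M) and, for single genes, the 4 ATF4 o/e libraries (nsybGal4>UAS-ATF4-HA). Each library was a pool of 20 whole CNSs from larvae late in the third instar, kept at 25°C, so that glia and other cells without the driver were included. No genotype carried the RNAi construct alone. The knockdown of ATF4, the construct itself and the genetic background of its line therefore cannot be told apart, and the same holds for TFAM overexpression and the line of its transgene.

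TFAM packages mitochondrial DNA and acts in its transcription, and an excess of it represses mitochondrial gene expression. Cells answer such mitochondrial stress in part through ATF4, the transcription factor encoded in Drosophila by crc. ATF4 is made when eIF2alpha is phosphorylated, and its known targets include genes of amino acid synthesis, the translation inhibitor Thor and the lactate dehydrogenase Ldh. Other stress responses, such as the heat shock response and JNK signalling, run through other transcription factors. A gene that differs from control in both TFAM o/e genotypes still changed with the RNAi construct present. A gene that differs from control and in the same direction from TFAM o/e sets the genotype with the RNAi apart from both. Of the 21 such genes, 15 were tested in ATF4 o/e against control, and 8 were called there in the same direction. Over all genes in that comparison, which shares the control libraries, 0.765% were called. ATF4 o/e does not carry the RNAi construct.

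Libraries held 22454084 to 23931053 counts for TFAM o/e + ATF4 RNAi, 20946531 to 24778270 for TFAM o/e, 22861867 to 23941597 for ATF4 o/e and 18215062 to 23628142 for control. Of 9 neuronal and 7 glial marker genes tested, edgeR and DESeq2 called 0, and 0 had an unadjusted p under 0.05. Over all genes tested, edgeR called 0.563%, and 443 of 9421 had an unadjusted p under 0.05. DESeq2 called 70 genes higher and 62 lower among the 14774 with any count. Counts of list members and neighbours, here and below, are to be read against the figures of the same tool. Only 1 glial marker had a fitted change above 0. The glial median was −0.30 on the log2 scale, against 0.02 for the neuronal markers and −0.02 over all genes. Control replicate 3 stood apart in how its counts rose with exon length, with a slope of log2(CPM + 1) on log2 exon length of 0.202, against 0.44 to 0.785 in the other 15 libraries. The 6 fat body markers summed to between 49.996 and 172 CPM (counts relative to library size) in TFAM o/e + ATF4 RNAi, between 59.9 and 113 CPM in TFAM o/e and between 131 and 509 CPM in control. In edgeR 0 of the 6 were called and in DESeq2 2 (Lsp1alpha and Lsp2, named after their values were seen), and each had a lower fitted level, by −1.98 to −1.31 on the log2 scale, and an unadjusted p of at most 0.0341 in edgeR. Larval cuticle markers summed to between 14.1 and 183 CPM against 64.7 to 232 CPM in control, and salivary gland markers to between 2.18 and 191 CPM against 1.12 to 36.9 CPM in control, so these sums varied widely between pools of 1 genotype. The part of such tissue in the results below was not tested, and fewer cells of a type and less RNA per cell cannot be told apart in such samples.

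The targeted genes were measured first. TFAM (FBgn0038805, chromosome 3R, 20575245 to 20577010 in dm6) had 399, 487, 620 and 669 CPM in TFAM o/e + ATF4 RNAi libraries, 396, 682, 553 and 521 CPM in TFAM o/e and 70.2, 84.8, 139 and 93.7 CPM in control. The TFAM libraries of both kinds lay above every control library and overlapped each other. TFAM rose by 2.46 ± 0.24 (log2, SE) over control at an adjusted p of 0.00184 in edgeR's quasi-likelihood test, and its difference from TFAM o/e had a 95% interval of −0.42 to 0.43. The counts do not separate the transgene's transcripts from those of the chromosomal gene. Of its 18 tested neighbours within 50 kb, edgeR and DESeq2 called 0, and 1 had an unadjusted p under 0.05.

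crc, which encodes ATF4, had 148, 157, 165 and 156 CPM in TFAM o/e + ATF4 RNAi, 216, 242, 169 and 184 CPM in TFAM o/e and 196, 188, 227 and 202 CPM in control. Every knockdown library was below every library of the other genotypes, and the knockdown mean was 76.9% of the control mean. An exact two-sided permutation test over the 8 libraries gave p = 0.0286 against control and the same against TFAM o/e, the smallest p it allows. In the fit across all genes the change of −0.41 ± 0.10 (log2, SE) was not called, with an unadjusted p of 0.00263 and an adjusted p of 0.25 in edgeR, and the adjusted p over the alternatives ran between 0.000586 and 0.689. crc was called by DESeq2 and with the exon length slope as a covariate, and under none of the other alternatives. The levels are those of whole CNS tissue, which includes cells outside the pattern of the driver. crc shares exons with CG46314 on the same strand, so some of its reads are of uncertain origin.

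**Figure D1:**
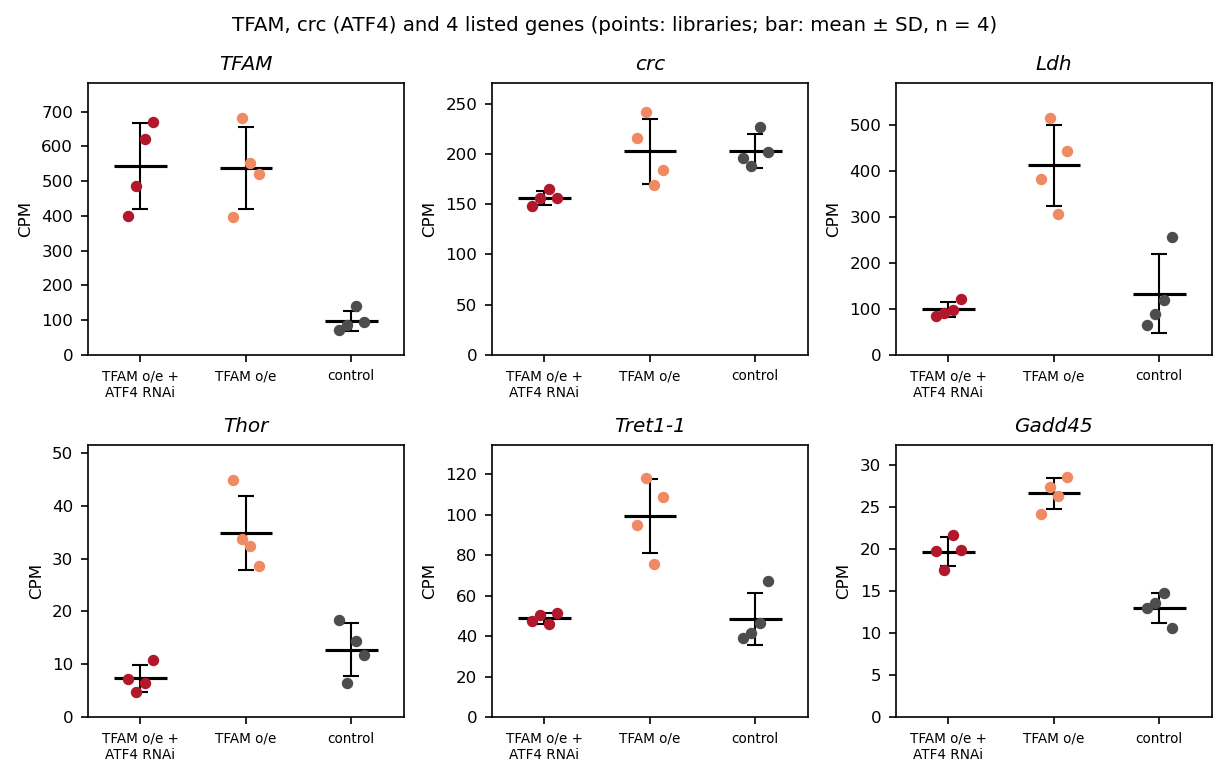
Level of TFAM, crc and 4 listed genes (CPM, linear axes starting at 0) in TFAM o/e + ATF4 RNAi, TFAM o/e and control. Points are the 4 libraries of a genotype, and bars are the mean ± SD. TFAM is high in both TFAM o/e genotypes and crc is lowest with the RNAi. Ldh, Thor and Tret1-1 are highest in TFAM o/e. There edgeR did not call them against control, whereas the authors, with DESeq2, reported Ldh and Tret1-1 as raised.

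Of 9421 genes tested between TFAM o/e + ATF4 RNAi and control, 53 were called (0.563%), a call being made at an adjusted p below 0.05 where the fold change also reached 1.2. Of these, 37 were higher (0.393%) and 16 lower (0.17%). The libraries of the 53 genes did not overlap between the genotypes, and the same was true of 338 genes in all, or 3.59% of those tested. The genes fell into 3 groups. There were 14 that were also called in the same direction in TFAM o/e against control, 21 that were also called in the same direction against TFAM o/e, and 18 that were called against control only. In TFAM o/e against control 28 genes were called (0.299%), 25 of them higher (0.267%) and 3 lower (0.0321%). In TFAM o/e + ATF4 RNAi against TFAM o/e 52 were called (0.551%), 22 higher (0.233%) and 30 lower (0.318%). These comparisons share control or TFAM o/e libraries, so the group sizes are descriptions. The last gene called was CG34232, at 0.70 on the log2 scale and an adjusted p of 0.0418 in edgeR, and the next in order was CG15347, at 2.91 and 0.0605.

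Which genes were called depended on single libraries. Leaving out 1 library gave between 19 higher genes (without control replicate 1) and 46 (without control replicate 3), and between 10 lower genes (without TFAM o/e + ATF4 RNAi replicate 4) and 22 (without control replicate 3). Without control replicate 3, the library that stands apart, 36 of the 37 higher and all 16 lower genes were still called. All 8 such fits called 28 of the 53 genes, and the genes described at length below are among these unless stated otherwise. The labels do not say whether the pools came from separate crosses, so p-values measure only the spread between these pools, which may be technical.

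The 14 genes called in both TFAM o/e genotypes comprised 13 that rose and 1 that fell. Their known functions were varied. Beside TFAM itself they held a cytochrome P450, a heat shock protein, a neuronal capsid protein, a neprilysin-like protease, a BMP-binding protein, a fucosyltransferase and lncRNAs. Between TFAM o/e + ATF4 RNAi and TFAM o/e 0 of the 14 were called in edgeR, with adjusted p between 0.191 and 0.997 and 5 at an unadjusted p under 0.05, and DESeq2 called 1, CG15784. The count was 7 without control replicate 1, 9 without control replicate 2 or 4, and, among the TFAM o/e libraries, 8 without replicate 1 and 9 without replicate 3.

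Cyp6t3 (chromosome 2R, 12190682 to 12192436), which encodes a cytochrome P450 known from ecdysone synthesis in the ring gland, had the largest rise of a protein-coding gene in this group that could be expressed as a fold change. It had 17.5, 16.6, 13.4 and 14 CPM in TFAM o/e + ATF4 RNAi, 17.1, 12, 15 and 15.5 CPM in TFAM o/e and 1.38, 0.82, 0.236 and 0.816 CPM in control. Both TFAM o/e genotypes were far above control and overlapped each other, whereas ATF4 o/e libraries had 0.213 to 0.976 CPM. The rise was 4.17 ± 0.38 (log2, SE), with an adjusted p of 0.00125 in edgeR, and the difference from TFAM o/e had a 95% interval of −0.29 to 0.36. The 5 ring gland markers tested, which include other enzymes of steroid synthesis, gave 0 calls in edgeR and DESeq2 and 0 at an unadjusted p under 0.05, and the listed markers summed to between 773 and 822 CPM in TFAM o/e + ATF4 RNAi and between 812 and 984 CPM in control. Cyp6t3 shares exons with CG8858 on the other strand, and the strand setting of the counting is not given in the sources used here, so the origin of its reads is uncertain.

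Hsp70Bb (chromosome 3R, 12505793 to 12508139) is one of several near-identical genes for the stress-induced chaperone Hsp70. It had 132, 196, 180 and 194 CPM in TFAM o/e + ATF4 RNAi, 113, 167, 87.3 and 88.4 CPM in TFAM o/e and 26.8, 31.6, 12.2 and 21.6 CPM in control. It rose by 2.89 ± 0.28 (log2, SE; adjusted p = 0.00172 in edgeR). Compared with TFAM o/e it had an interval of 0.16 to 1.08, which lay above 0 but was not called. ATF4 o/e libraries had 62.6, 73.3, 94.3 and 92.4 CPM, so that Hsp70Bb was high in each genotype with a UAS transgene. The rest of the heat shock list was not called. Of 15 heat shock genes tested, Hsp70Bb was the only one called, and the other 14 had fitted changes between −1.24 and 0.39 on the log2 scale. The 5 other Hsp70 copies, which could share its reads, reached at most 2.25 CPM in any of the 16 libraries. As background, an Hsp70 promoter with its leader sequence is part of commonly used UAS vectors. Whether reads of Hsp70Bb came from such sequence was not tested.

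Arc1, which encodes a retrotransposon-derived capsid protein that carries RNA between neurons and muscle, had levels of 252, 201, 243 and 275 CPM in TFAM o/e + ATF4 RNAi, 281, 218, 228 and 304 CPM in TFAM o/e and 108, 85.4, 110 and 94.4 CPM in control. Arc1 rose by 1.26 ± 0.14 (log2, SE; adjusted p = 0.00296 in edgeR), and the interval of its difference from TFAM o/e was −0.40 to 0.21. In ATF4 o/e it had 58.2 to 79.0 CPM, below the control libraries. The related gene Arc2, which lies next to it, had 8.89 to 13.2 CPM in TFAM o/e + ATF4 RNAi and 5.59 to 8.14 CPM in control, and was not called (adjusted p = 0.286 in edgeR). Arc1 was the only 1 of 11 tested genes of the activity and JNK list that edgeR called, and DESeq2 also called Arc2 and Gadd45. In edgeR 3 of the 11 had an unadjusted p under 0.05, and 5 had a fitted change above 0. The JNK phosphatase puc had 55.2 to 72.2 CPM against 39.2 to 69.3 CPM in control.

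Nepl3, a neprilysin-like metalloprotease gene, was nearly level between the TFAM o/e genotypes. It had 17.9, 18, 18.4 and 15.8 CPM in TFAM o/e + ATF4 RNAi, 18.8, 19.9, 14.5 and 17.2 CPM in TFAM o/e and 4.71, 5.37, 6.13 and 6.53 CPM in control. The rise of 1.6 ± 0.14 (log2, SE) had an adjusted p of 0.0011 in edgeR, and the difference from TFAM o/e had an interval of −0.27 to 0.25. ATF4 o/e libraries had 14 to 16.5 CPM and thus also lay above control. Nepl3 shares exons with His3.3A on the other strand.

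For 3 genes of the group, CG15784, cv-2 and CG13566, the mean level with the RNAi lay between TFAM o/e and control and the interval of the difference from TFAM o/e lay wholly below 0. CG15784 had 77.2, 48.8, 67.1 and 70.2 CPM in TFAM o/e + ATF4 RNAi, 107, 89.5, 89.7 and 115 CPM in TFAM o/e and 24.3, 13.2, 19.2 and 24.0 CPM in control. Its 3 sets of libraries did not overlap, and the difference from TFAM o/e had an interval of −0.95 to −0.28 on the log2 scale without a call in edgeR (adjusted p = 0.191), though DESeq2 called it. The call of CG15784 against control, a rise of 1.68 ± 0.22 (log2, SE), was lost without TFAM o/e + ATF4 RNAi replicate 4, at an adjusted p of 0.0506 in edgeR.

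cv-2, which encodes a BMP-binding protein, had 49.9, 47.4, 46.6 and 44.5 CPM with the RNAi, 58.9, 49.8, 57.8 and 66.5 CPM in TFAM o/e and 25.2, 28.9, 20.1 and 20.2 CPM in control. The interval of its difference from TFAM o/e was −0.55 to −0.08 on the log2 scale. CG13566, a gene at low counts, had 0.669 to 1.45 CPM with the RNAi, 1.51 to 2.51 CPM in TFAM o/e and 0.118 to 0.227 CPM in control, and its interval was −1.45 to −0.23. The calls of cv-2, CG13566 and the fucosyltransferase gene FucTB, which had 9.45 to 11.8 CPM against 5.00 to 6.53 CPM in control, were less stable. They held in 2, 5 and 2 of the 8 fits that left out a library, with adjusted p up to 0.0806, 0.0731 and 0.115 in edgeR.

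The remaining genes that rose in both genotypes were low or non-coding. lncRNA:CR40469, near the start of the X chromosome, had 23.0, 11.1, 30.2 and 48.1 CPM in TFAM o/e + ATF4 RNAi, 9.81, 22.7, 5.69 and 9.45 CPM in TFAM o/e and 0.319 to 0.413 CPM in control, while ATF4 o/e libraries had 16.9 to 33.8 CPM. Its rise of 6.21 ± 0.49 (log2, SE) was the largest fitted in the group. CG17217 had 2.10 to 2.68 CPM against 0.177 to 0.375 CPM in control. lncRNA:CR44608 and CG42364 had no more than 3 counts in any control library and were at least 9.29-fold and at least 6.54-fold higher, computed against a floor of 3 counts per library. In ATF4 o/e lncRNA:CR44608 had 0.341 to 0.703 CPM, above its control libraries at 0.0417 to 0.0907 CPM. CG42364 had 0.0424 to 0.218 CPM in ATF4 o/e and overlapped control, at 0.0454 to 0.125 CPM. CG42364 shares exons with CG42362 and CG42363 on its own strand.

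The only gene that fell in both TFAM o/e genotypes was lncRNA:CR46006 on chromosome 3L, whose exons overlap the microRNA gene mir-276a. It had 38.5, 45.4, 41.6 and 51.5 CPM with the RNAi, 38.7, 46.3, 45.0 and 43.5 CPM in TFAM o/e and 83.5, 99.4, 121 and 98.7 CPM in control. ATF4 o/e libraries had 47.4 to 59.7 CPM, so control was above all 12 other libraries. The fall was −1.22 ± 0.14 (log2, SE; adjusted p = 0.0037 in edgeR), with a difference from TFAM o/e of −0.21 to 0.25.

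**Figure D2:**
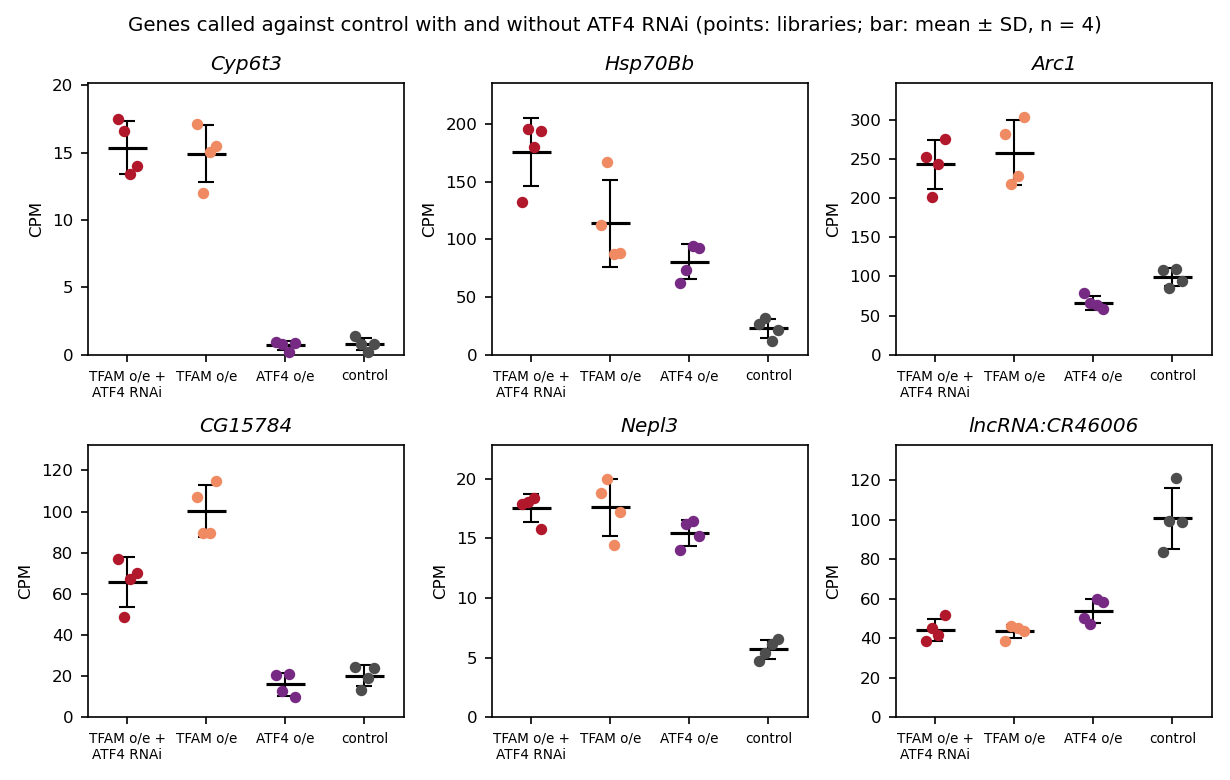
Level of 6 genes called against control both with and without ATF4 RNAi (CPM, linear axes starting at 0) in TFAM o/e + ATF4 RNAi, TFAM o/e, ATF4 o/e and control. Points are the 4 libraries of a genotype, and bars are the mean ± SD. Cyp6t3, Arc1 and CG15784 are at or below control in ATF4 o/e, whereas Hsp70Bb, Nepl3 and lncRNA:CR46006 differ from control in all the other genotypes.

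The 21 genes that were called against control and in the same direction against TFAM o/e comprised 15 that rose and 6 that fell. Among those that rose were the pigmentation genes y and v and the embryonic patterning gene ftz, which were high with the RNAi only, and sordd2, which was also high in ATF4 o/e. Leaving out any library but control replicate 3 gave 11 to 13 such genes, and leaving out control replicate 3 gave 23. Without a TFAM o/e library there were 15 to 21.

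y (FBgn0004034, chromosome X, 356509 to 361245) encodes a secreted protein needed for black pigment in the cuticle. It had 61.7, 77.7, 77.2 and 55.6 CPM in TFAM o/e + ATF4 RNAi, 2.84, 3.51, 1.98 and 2.55 CPM in TFAM o/e and 1.67, 1.59, 0.885 and 1.81 CPM in control. No library of another genotype came near those with the RNAi. y rose by 5.46 ± 0.23 (log2, SE; adjusted p = 2.09e-05 in edgeR), which was the lowest adjusted p of all genes in the comparison. v (chromosome X, 10923972 to 10925631), which encodes the tryptophan oxygenase of brown eye pigment synthesis, had 6.51, 6.82, 7.67 and 11.3 CPM with the RNAi and at most 0.277 CPM in TFAM o/e and 0.295 CPM in control. v rose by 5.43 ± 0.38 (log2, SE; adjusted p = 0.000436 in edgeR).

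ftz (chromosome 3R, 6864324 to 6866244), a homeobox gene of embryonic segmentation, had 2.06, 2.44, 2.27 and 2.50 CPM in TFAM o/e + ATF4 RNAi and 0.0834, 0.0911, 0.472 and 0.227 CPM in control. It rose by 3.43 ± 0.43 (log2, SE; adjusted p = 0.00828 in edgeR), and was at least 17.7-fold above TFAM o/e, where no library had more than 3 counts. The ATF4 o/e libraries had 1.02 to 1.74 CPM of y, 0.128 to 0.392 CPM of v and 0.0424 to 0.331 CPM of ftz, near the control level for each.

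The chromosomal neighbours of these genes were not called. Within 50 kb, 5 tested genes around y had fitted changes of −0.53 to 0.37 on the log2 scale, 7 around v of −0.01 to 0.57, and 4 around ftz, among them the Hox genes Scr and Antp, of −0.08 to 0.46. edgeR and DESeq2 called 0 of them, and 0 had an unadjusted p under 0.05. As background, wild-type copies of y, v and w are widely used as visible markers of inserted constructs, and an intron of ftz is part of some hairpin RNAi vectors. The labels name neither the vector nor the insertion site of the RNAi line, and gene counts cannot tell a chromosomal copy from an inserted one. w, the marker of many transgenes, had 22.0, 24.0, 20.3 and 27.4 CPM with the RNAi, 20.8, 16.1, 30.3 and 24.1 CPM in TFAM o/e and 16.9, 15.9, 15.3 and 17.6 CPM in control, and was not called (adjusted p = 0.272 in edgeR). Of 5 marker genes tested, y and v were the only ones called in edgeR, and DESeq2 also called w.

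Genes of the RNA interference machinery, such as Dcr-2 and AGO2, were measured as well. Of 8 tested, edgeR and DESeq2 called 0 and 0 had an unadjusted p under 0.05, and their median was −0.05 on the log2 scale, against −0.02 over all genes tested. Over all genes edgeR called 0.563%, so a count of 0 among 8 genes is near that background.

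Another set of genes in this group lay on the same side of control in TFAM o/e + ATF4 RNAi and in ATF4 o/e. sordd2 (chromosome X, 15796908 to 15799162) had 13.1, 15.7, 14.9 and 15.5 CPM with the RNAi and 13.8, 16.5, 12 and 17.9 CPM in ATF4 o/e, and 0 counts in all TFAM o/e and control libraries. It was at least 103-fold above control. The pseudogene CR44383, which starts 0.431 kb from it on the opposite strand, had 3.61 to 5.14 CPM with the RNAi, 3.19 to 5.66 CPM in ATF4 o/e and at most 0.136 CPM in control, and was at least 28.9-fold higher. The 19 other tested genes within 50 kb of sordd2, including its relative sordd1, were not called.

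Cnx14D, a calnexin gene inside the span of para, showed the reverse arrangement. It had 0.252, 0.289, 0.223 and 0.182 CPM with the RNAi, 1.2, 2.10, 3.76 and 2.13 CPM in TFAM o/e and 2.96, 2.60, 2.83 and 3.49 CPM in control, with 0.255 to 0.511 CPM in ATF4 o/e. It fell by 3.64 on the log2 scale (SE 0.23; adjusted p = 0.000263 in edgeR). It was the only gene that edgeR or DESeq2 called of 12 tested in the list of the ER unfolded protein response, against 0.563% of all genes in edgeR.

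pst, a gene known for resistance to viral infection, had 30.6, 29.9, 33.7 and 31.9 CPM with the RNAi, 59.2, 61.7, 46.8 and 56.4 CPM in TFAM o/e and 57.0, 61.3, 68.4 and 72.7 CPM in control, and 19.9 to 27.0 CPM in ATF4 o/e. It fell by 1.07 on the log2 scale (SE 0.10; adjusted p = 0.00145 in edgeR). CG6654 had 27.3, 27.5, 28.5 and 29.2 CPM with the RNAi, 52.4, 47.9, 53.2 and 51.1 CPM in TFAM o/e and 49.4, 49.5, 47.0 and 53.7 CPM in control, with 25.5 to 31.5 CPM in ATF4 o/e. It fell by 0.86 on the log2 scale (SE 0.08; adjusted p = 0.00184 in edgeR). CG6654 shares exons with Mau2 on the other strand.

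In the same pattern, Apl had 7.77 to 8.52 CPM with the RNAi and 12.3 to 14.3 CPM in control, IntS12, a subunit of the Integrator complex, 25.3 to 33.5 CPM against 14 to 16.8 CPM, and CG3339 1.01 to 1.45 CPM against 0.059 to 0.364 CPM. These 8 genes were also called in the same direction in ATF4 o/e against control and against TFAM o/e. In ATF4 o/e against control 0.765% of genes were called (0.383% in each direction), and in ATF4 o/e against TFAM o/e 1.41% (0.424% higher and 0.987% lower). These comparisons with ATF4 o/e share the control or TFAM o/e libraries by which the group was formed, so only the ATF4 o/e levels are additional. In ATF4 o/e against control, 9 of the 18 genes called against control only and 4 of the 14 genes called in both TFAM o/e genotypes were also called in the same direction. All 18 of the former were tested there, but only 10 of the 14, and 15 of the 21 genes of the present group. The calls of Apl, IntS12 and CG3339 against control held in 1, 4 and 2 of the 8 fits that left out a library.

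**Figure D3:**
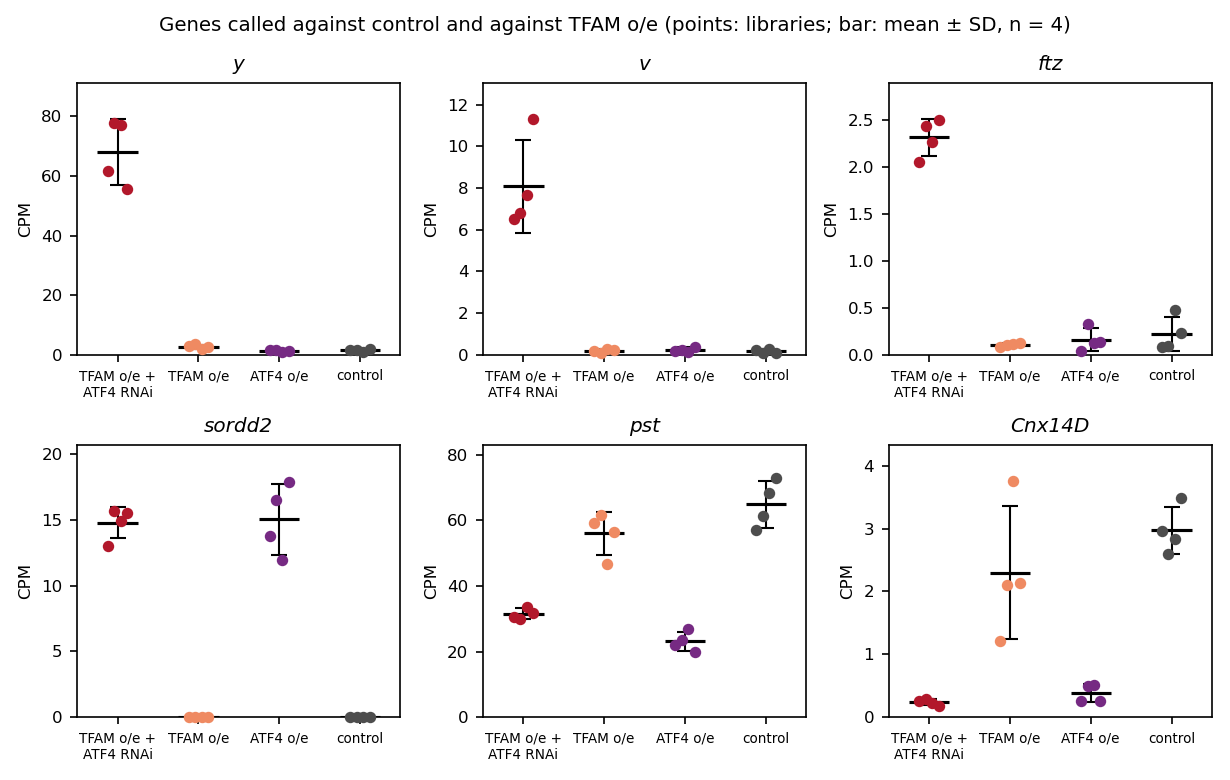
Level of 6 genes called both against control and against TFAM o/e (CPM, linear axes starting at 0) in TFAM o/e + ATF4 RNAi, TFAM o/e, ATF4 o/e and control. Points are the 4 libraries of a genotype, and bars are the mean ± SD. y, v and ftz are high with the RNAi only, whereas sordd2, pst and Cnx14D lie on the same side of TFAM o/e and control with the RNAi and in ATF4 o/e.

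The other genes of this group had smaller changes or rarer transcripts. The pseudogene CR33294 had 2.77, 2.94, 2.23 and 1.82 CPM with the RNAi and 0.0907 to 0.177 CPM in control, and rose by 4.15 ± 0.32 (log2, SE; adjusted p = 0.000781 in edgeR). lncRNA:CR45570, which overlaps a roo element, was at least 5.37-fold higher, lncRNA:CR45364 at least 5.59-fold and CG1208 at least 6.93-fold higher than control, where none had more than 3 counts in a library. Metabolic genes were among those that rose less. The glutathione transferase gene GstT3 had 15.3, 19.7, 23.1 and 24.1 CPM with the RNAi and 7.46, 8.43, 10.4 and 7.66 CPM in control. Mocs1, needed for the molybdenum cofactor, had 28.9, 27.2, 26 and 24.5 CPM against 11.1, 10.2, 8.02 and 15.6 CPM in control, and shares exons with Pfdn2 on the other strand. CG9737 and CG9518 also rose.

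CG7386 and CG12592 fell, to 4.16 to 5.23 CPM with the RNAi against 9.34 to 12.8 CPM in control and to 0.713 to 1.12 CPM against 1.95 to 3.00 CPM. Of the genes just named, CR33294, lncRNA:CR45570 and CG7386 were called in all 8 fits that left out a library. GstT3, Mocs1 and CG9737 held in 2 of them, lncRNA:CR45364 in 2 of the 5 in which it was tested, CG1208 and CG12592 in 1 and CG9518 in 0, with adjusted p in edgeR up to 0.161.

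**Figure D4:**
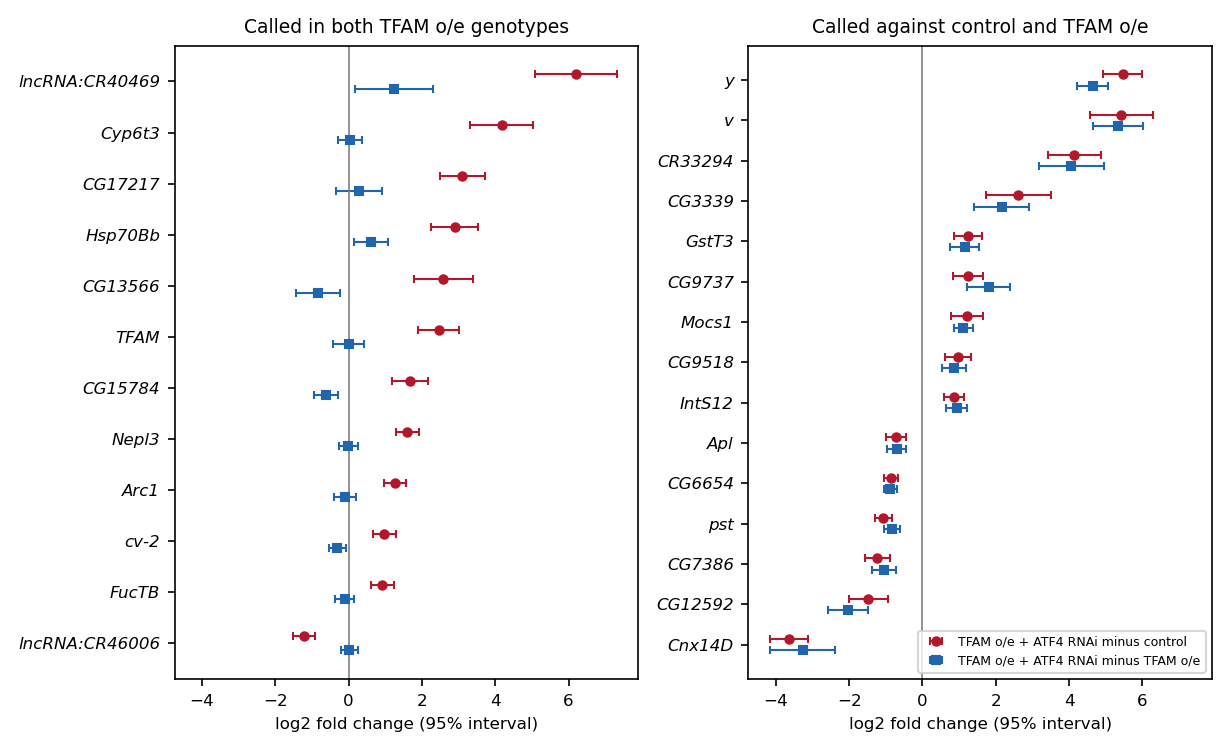
Fitted log2 fold changes with 95% intervals for 12 genes called in both TFAM o/e genotypes (left) and 15 genes called against control and against TFAM o/e (right). Circles are TFAM o/e + ATF4 RNAi minus control and squares are TFAM o/e + ATF4 RNAi minus TFAM o/e, and genes with a genotype at no more than 3 counts in every library are left out. On the left the squares lie nearer to 0 than the circles, and 5 of their intervals exclude 0. On the right squares and circles lie on the same side of 0, as the rule for that group requires.

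The 18 genes called against control only comprised 9 that rose and 9 that fell. DESeq2 called 6 of them against TFAM o/e as well, namely CG15879, mthl8, CG7366, CG14566, lncRNA:CR45973 and lncRNA:CR45625. In TFAM o/e the mean level of each lay on the same side of control without being called, and the libraries of control were shared. Ms, which encodes the neuropeptide myosuppressin, an inhibitor of visceral muscle contraction, had 61.5, 65.0, 73.4 and 63.1 CPM with the RNAi, 84.0, 112, 78.1 and 77.1 CPM in TFAM o/e and 97.3, 117, 122 and 125 CPM in control. It fell by 0.84 on the log2 scale (SE 0.11; adjusted p = 0.00911 in edgeR), and the call was lost in 4 of the 8 fits that left out a library, with adjusted p up to 0.0565. The losses came without TFAM o/e + ATF4 RNAi replicate 1, 2 or 4 or without control replicate 4.

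mthl8, a methuselah-like receptor gene, lies near the end of chromosome 3L. It had 56.0, 60.5, 52.6 and 53.3 CPM with the RNAi, 83.1, 86.8, 89.6 and 65.7 CPM in TFAM o/e and 120, 112, 138 and 118 CPM in control. The 3 genotypes did not overlap. The fall was 1.16 on the log2 scale (SE 0.11; adjusted p = 0.00125 in edgeR), and the interval of the difference from TFAM o/e was −0.79 to −0.31 without a call in edgeR (adjusted p = 0.074), though DESeq2 called it. In ATF4 o/e it had 54.2 to 63.6 CPM.

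Non-coding and duplicated genes made up much of what fell furthest. lncRNA:CR45973 had 1.47 to 2.10 CPM with the RNAi, 2.65 to 6.28 CPM in TFAM o/e and 7.20 to 9.80 CPM in control, and the pseudogene CR43086 had 0.372 to 0.545 CPM, 0.395 to 1.1 CPM and 2.18 to 4.25 CPM. lncRNA:CR45625 and Ada1-1, a gene for a subunit of the SAGA complex, had no more than 3 counts in any library with the RNAi and were at least 6.26-fold and at least 13.4-fold lower than control. Ada1-1 had 0.387, 0.601, 0 and 0 CPM in TFAM o/e and 1.71, 1.78, 1.77 and 1.72 CPM in control, so that TFAM o/e libraries differed among themselves. Ada1-1 has a near copy, Ada1-2, close by, so its reads could have been divided between them.

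CG14566 had 4.27 to 8.52 CPM with the RNAi and 18.7 to 44.2 CPM in control, CG7366 1.29 to 1.49 CPM against 2.77 to 4.94 CPM, and CG1299 4.92 to 6.09 CPM against 9.17 to 10.9 CPM, and these calls held in 4, 1 and 2 of the 8 fits.

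Among the 9 that rose, GstD2, a glutathione transferase gene of the detoxification list, had 5.04, 3.10, 5.44 and 6.23 CPM with the RNAi, 2.97, 5.06, 2.77 and 4.01 CPM in TFAM o/e and 0.959, 1.5, 1.83 and 1.81 CPM in control. It was the only gene that edgeR or DESeq2 called of 10 tested in that list, against 0.563% of all genes in edgeR. Of the 10, 5 had an unadjusted p under 0.05 in edgeR, against 443 of 9421 over all genes. Only 4 of the 10 had a fitted change above 0, and the list median was −0.17 on the log2 scale, against −0.02 over all genes. The call of GstD2 held in 2 of the 8 fits. Argl, the argininosuccinate lyase gene, had 5.08 to 6.04 CPM with the RNAi and 2.23 to 3.19 CPM in control, and its call held in 1 of the fits. CG14694 had 1.36 to 1.72 CPM against 0.295 to 0.499 CPM, lncRNA:CR45242 had 25.1 to 31.6 CPM against 11.3 to 15 CPM, and both were called in all 8 fits. Esp, CG15879, CG12911, CG42694 and CG34232 also rose, by 0.70 to 1.6 on the log2 scale, and their calls held in 1 to 5 of the fits. Exons are also shared with another gene, and reads thus of uncertain origin, for CG17217, CG13566, FucTB, CG1208, CG3339, Apl, Argl and lncRNA:CR45973.

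The list of the integrated stress response and ATF4 targets was compared with control in the presence of the RNAi. Of 15 tested genes of that list, edgeR called 0 and DESeq2 1, crc itself, with 2 at an unadjusted p under 0.05 in edgeR and changes between −0.83 and 0.20 on the log2 scale. Over all genes edgeR called 0.563% and 443 of 9421 had an unadjusted p under 0.05, so that its count of 0 among 15 genes is near that background. The median of the list was −0.04, against −0.02 over all genes tested. Ldh had 84.8, 90.4, 98.1 and 122 CPM in TFAM o/e + ATF4 RNAi, 382, 515, 306 and 443 CPM in TFAM o/e and 64.9, 88.6, 120 and 257 CPM in control. It fell by 2.07 on the log2 scale against TFAM o/e (SE 0.17; adjusted p = 0.000312 in edgeR), and its difference from control had an interval of −1.30 to 0.40.

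Thor had 7.30, 4.80, 6.56 and 10.8 CPM with the RNAi, 44.8, 33.7, 32.3 and 28.5 CPM in TFAM o/e and 18.3, 6.42, 14.4 and 11.8 CPM in control. Against control the interval was −1.6 to −0.06, below 0 but not called (adjusted p = 0.966 in edgeR). The trehalose transporter gene Tret1-1 had 47.5, 50.4, 45.9 and 51.7 CPM with the RNAi, 95.1, 118, 75.7 and 109 CPM in TFAM o/e and 39.3, 41.7, 46.4 and 67.4 CPM in control, with an interval of −0.40 to 0.35 against control. Ldh, Thor and Tret1-1 were thus lower than TFAM o/e in all 4 libraries and overlapped control. None of them was among the 28 genes that edgeR called in TFAM o/e against control. The authors, who used DESeq2, did report Ldh (as Impl3) and Tret1-1 as raised by TFAM overexpression and reversed by ATF4 knockdown.

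Of the 28 genes called in TFAM o/e against control, 14 were not called with the RNAi, and 8 of these were lower than TFAM o/e by a call in the direct comparison. Hsc70-2, a heat shock cognate gene, had 0.462, 0.0827, 0.357 and 0.864 CPM with the RNAi, 13.0, 18.3, 18 and 21.9 CPM in TFAM o/e and 0.125, 0.182, 0.708 and 0.227 CPM in control. Like 6 others of the 14, it was too low in the libraries of TFAM o/e + ATF4 RNAi and control to be tested between them. thw, named after its values were seen, had 1.78 to 3.32 CPM with the RNAi, 12.9 to 22.1 CPM in TFAM o/e and 1.06 to 4.13 CPM in control. Gadd45, a stress gene of the JNK list, lay between, with 19.8, 17.5, 21.6 and 19.9 CPM with the RNAi, 24.2, 27.4, 26.4 and 28.6 CPM in TFAM o/e and 13.0, 13.6, 14.7 and 10.6 CPM in control. Its 3 sets of libraries did not overlap, but edgeR called it neither against control (adjusted p = 0.21) nor against TFAM o/e (adjusted p = 0.145), whereas DESeq2 called it against control. In ATF4 o/e Hsc70-2 had 0.0849 to 0.298 CPM and thw 2.09 to 3.47 CPM, and both overlapped control. CG14963, another of the 14, was called higher in ATF4 o/e, at 2.21 to 2.78 CPM against 0.408 to 0.590 CPM in control. It shares exons with CG32278 on the other strand.

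The mitochondrial and metabolic lists are given by their counts. In edgeR these are to be read against 0.563% of all genes called and 443 of 9421 at an unadjusted p under 0.05. Of 10 tested genes for mitochondrial chaperones and proteases, edgeR and DESeq2 called 0, and 0 had an unadjusted p under 0.05. The chaperone gene Hsp60A had 385 to 493 CPM against 308 to 416 CPM in control, and Hsc70-5 had 220 to 258 CPM against 172 to 235 CPM, so that both overlapped. Of 25 nuclear genes of the respiratory chain and ATP synthase, both tools called 0, with 0 at an unadjusted p under 0.05 and a median of −0.07 on the log2 scale. Of 18 genes of glycolysis, lactate and sugar transport, both called 0, with 1 at an unadjusted p under 0.05 and a median of −0.10. Of 9 tested genes for the upkeep of mitochondrial DNA, TFAM was the only one called. Of 3 antimicrobial peptide genes tested, edgeR and DESeq2 called 0, and 1 had an unadjusted p under 0.05. The 38 genes of the mitochondrial genome had 0 counts in every library, so their RNA is not measured here.

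Genes that fell were concentrated on 1 chromosome arm. Of the 16, 10 lay on 3L (62.5%), where 19.7% of tested genes lie, and the rest were on 3R, X and 2L. They spread over nearly the whole arm, between gene starts at 22428 and 21739479, and neighbouring ones were at least 844 kb apart. Of the 10 on 3L, 6 were also called lower in ATF4 o/e against control, where 0.383% of all genes were called lower. That comparison shares the control libraries. Of the 37 that rose, 12 lay on 3R (32.4%, against 24.3% of tested genes) and 8 on X (21.6%, against 16.9%). A further 8 lay on 2R (21.6%, against 19.8%), 6 on 2L (16.2%, against 17.6%) and 3 on 3L (8.1%, against 19.7%). By group, 13 of the 21 genes that also differed from TFAM o/e lay on chromosome 3 and 7 on X, and only lncRNA:CR45364 on chromosome 2, while 9 of the 14 genes called in both TFAM o/e genotypes lay on chromosome 2. Chromosome 3 holds 43.9%, chromosome 2 37.4% and X 16.9% of tested genes. Apart from sordd2 and CR44383, the only called genes within 50 kb of each other were CG34232 and Cyp6t3, 25.8 kb apart with 11 tested genes between them. These shares are descriptions of few genes, and no test was made of them.

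**Figure D5:**
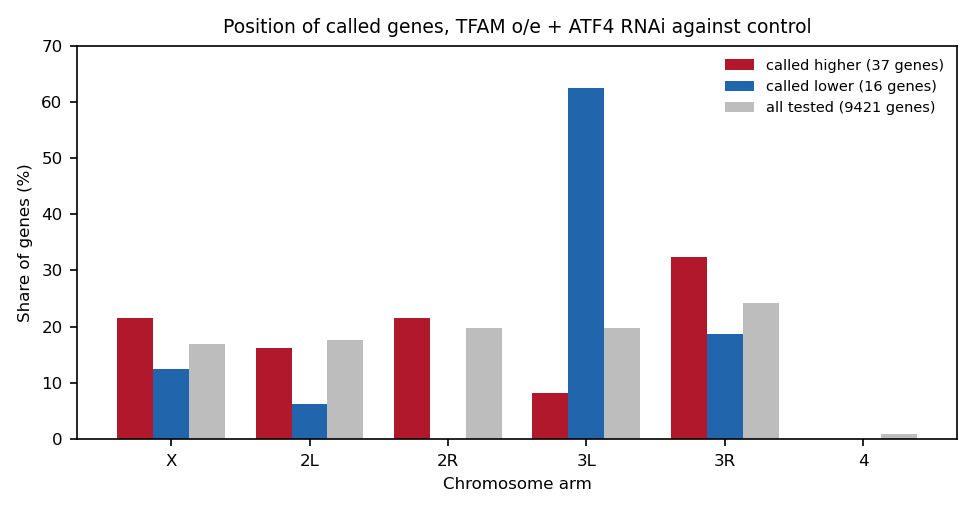
Share of genes on each chromosome arm (percent, axis starting at 0) among genes called higher and called lower in TFAM o/e + ATF4 RNAi against control, and among all genes tested. Arm 3L holds 62.5% of the genes called lower and 19.7% of those tested.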

How the data were processed

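RNA came from larval CNSs late in the third instar, with 4 libraries for each genotype. Per the methods, polyA libraries were made with a stranded kit and sequenced from 1 end, and the authors mapped the reads to dm6 with Bowtie2 (2.3.4.2 in the submitters' processing notes) and counted per gene with featureCounts 1.6.3. The deposited values are raw counts for 17698 genes, with no normalization by the authors. Which annotation was counted against, and with which strand setting, is not given in the sources used here. Symbols and positions came from the BDGP6 annotation (Ensembl), which held 17560 of the identifiers. The other 138 stayed in the tests without a symbol.

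Each pair of genotypes was fitted on its 8 libraries in R 4.3.3 with edgeR 4.0.16 (filterByExpr, TMM, quasi-likelihood test). A gene was called at a Benjamini-Hochberg adjusted p under 0.05 over all genes tested and a fold change of at least 1.2. CPM values use TMM library sizes. Fold changes against a genotype with no more than 3 counts in any library are lower bounds from that floor. Intervals come from the fitted SE. Replicates differed by more than sampling noise (chi-square per degree of freedom 12.7 to 368). The fitting steps were tested on simulated data. Alternatives were DESeq2 1.42.0, other normalizations, filters, thresholds and sample sets, a replicate block, an exon length covariate, and leaving out each library, with TFAM o/e libraries left out as an addition after seeing the data.

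The comparison, gene lists and the grouping of genes were chosen with earlier results of these data known. Genes named were TFAM, crc, the 12 largest rises and falls among called genes whose libraries did not overlap, up to 20 genes of each group, called genes of the lists or within 50 kb of another, and list members needed to describe a list. The ATF4 o/e fits were added to the planned comparisons to give levels and calls of the named genes. Every other called gene was named after its values were seen.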

Additional observations from a re-analysis of the deposited data

Results flagged for a closer look

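In 2 of the 99 sets of 4 libraries examined, covering called genes and crc with the RNAi and in control, a single library stood far from the other 3 by Dixon's test, which marks about 1 in 20 sets by chance. CG12911 was highest in control replicate 4, at 13.2 CPM, where the other control libraries had 8.85 to 9.46 CPM and those with the RNAi 21.5 to 31.3 CPM. lncRNA:CR44608 was lowest in TFAM o/e + ATF4 RNAi replicate 1, at 0.924 CPM, where the other libraries of that genotype had 1.45 to 1.49 CPM.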

How the results depend on the processing

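No gene changed direction under any alternative. The counts of 37 higher and 16 lower genes became 70 and 62 with DESeq2 and 89 and 89 with the exon length slope as a covariate, and the 16 became 41 with all 16 libraries in 1 fit. Leaving out 1 library gave 19 to 46 and 10 to 22. The 14 genes called in both TFAM o/e genotypes became 39 with DESeq2, 33 with all 16 libraries, 22 with the 12 libraries of 3 genotypes and 42 with the covariate, and 7 to 12 without 1 library. The 21 genes also called against TFAM o/e became 41 with DESeq2, 46 with the covariate and 11 to 23 without 1 library. DESeq2, the covariate and the fit of all 16 libraries called all 53 genes again, and the fit of 3 genotypes lost CG34232 and CG12911. The cause of these differences was not tested.

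The labels give same-numbered samples no shared origin. The deviations of RNAi and control libraries correlated at 0.577, 0.38, 0.398 and 0.0793, above 0.1 in 3 of 4 pairs, so whether the numbers pair the samples is not settled. With the replicate block 25 genes were higher and 11 lower, 6 were called in both TFAM o/e genotypes and 9 against TFAM o/e. The block lost 20 of the 53 calls, among them CG14694 (adjusted p = 0.0561 in edgeR), lncRNA:CR45570 (0.0571) and Ada1-1 (0.088), which were called in all 8 fits that left out a library. Low counts limit CG13566, CG42364, lncRNA:CR44608 and ftz, whose control libraries held few reads. The same holds for other called genes, among them v (2 to 6 counts in control libraries), CR33294 (2 to 4), CG17217 (3 to 9) and CG3339 (1 to 8). For sordd2, CR44383, lncRNA:CR45364, lncRNA:CR45570 and CG1208 no control library had more than 3 counts.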
